A study of Rattus norvegicus with 30 samples.

Results

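The transcripts described here are those of the Rag GTPases, of folliculin with its partner Fnip1, of the scaffold gene Lamtor1 and of the MiT/TFE transcription factors, measured in rat hepatocytes exposed to chlorpromazine. The members were chosen by gene symbol, taking every probe set whose annotation names Rragd, Rragc, Rraga, Rragb, Flcn, Fnip1, Lamtor1, Tfeb, Tfe3 or Mitf and no other gene. That rule found 16 of the 31099 probe sets on the array (0.0514%), for 9 of the 10 genes. The group was drawn up after the high level of Rragd at 20 µM was known. The Rragd values at 20 µM are therefore given as a description with no test. The other members were also chosen with earlier results of these data known. Their p-values are thus not independent of that choice.

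The Rag GTPases work at the surface of the lysosome as pairs, RagA or RagB with RagC or RagD, anchored there by the Ragulator scaffold, and they bring the growth regulator mTORC1 to the lysosome when amino acids are plentiful. Folliculin, bound to Fnip1 or Fnip2, acts on the nucleotide held by RagC and RagD, and that partner in turn presents the MiT/TFE factors to mTORC1, which keeps them out of the nucleus by phosphorylation. In the nucleus these factors bind E-box sequences of the CLEAR type at genes for lysosomal enzymes and proton pump subunits, and several genes of the Rag and folliculin group are themselves known targets in other cells.

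Expression was measured in primary hepatocytes bought frozen from male Sprague Dawley rats and kept in culture. Chlorpromazine hydrochloride, an antipsychotic of the phenothiazine class that as a cationic amphiphilic molecule gathers in lysosomes, was added on day 3 at 0.8 or 20 µM, with other wells given vehicle alone, dimethyl sulfoxide at 1%. RNA was collected 24 or 48 h later, and each of the 6 combinations had 5 wells with 1 array each, 30 arrays in all. The wells are described as independent cultures with no separate animals named, so p-values measure the spread between cultures.

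Values are log2 of the array signal, changes are differences of group means ± SE with 5 arrays per group, and 5 arrays a group set how small a change can be seen. Of the 16 member probe sets, 10 passed a filter on dim signals and were tested together with all others that passed, 21226 in total. A probe set was called changed where the Benjamini-Hochberg adjusted p from limma was under 0.05, and "rose" and "fell" are used in that sense only. Array medians ran from 380 to 449, and the median change over all probe sets tested at 20 µM was -0.01 at 24 h and 0.01 at 48 h. Vehicle replicate 2 at 24 h has 2 h in its title and 24 h in its time entry; it was placed by the time entry, and its mean correlation with its group was 0.956, within the 0.95 to 0.963 seen over all arrays.

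Rragd, which encodes the RagD partner of the pair, had the highest change of the members. Its 5 vehicle arrays at 24 h read 9.25, 9.63, 9.71, 9.16 and 9.31. The 0.8 µM arrays at 24 h read 9.14, 9.52, 9.49, 9.62 and 9.79, and those at 20 µM read 10.80, 10.93, 10.94, 11.07 and 11.02. At 24 h the low dose thus overlapped vehicle over its whole range, while the high dose stood clear of both. At 48 h vehicle arrays read 9.20, 9.61, 9.49, 9.39 and 9.61. The 0.8 µM arrays then read 9.90, 9.83, 9.89, 9.75 and 10.24, and the 20 µM arrays 11.37, 11.39, 11.52, 11.45 and 11.68. At 48 h the 3 dose groups did not overlap and lay in the order of dose.

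In group means Rragd ran from 9.41 ± 0.24 (SD, n = 5) in vehicle at 24 h through 9.46 ± 0.17 in vehicle at 48 h, 9.51 ± 0.24 at 0.8 µM and 24 h, and 9.92 ± 0.19 at 0.8 µM and 48 h, to 10.95 ± 0.10 and 11.48 ± 0.12 at 20 µM and 24 and 48 h. The first 3 of these groups overlapped, the low dose at 48 h overlapped the low dose at 24 h only at its lowest array, and the 2 high dose groups were apart from each other and from all the rest. The change at 20 µM was 1.54 ± 0.12 at 24 h, or 2.90-fold, and 2.02 ± 0.12 at 48 h, or 4.06-fold. By size of the rise it stood 12th of 11503 named genes at 24 h and 9th at 48 h. The change was larger at 48 h than at 24 h by 0.48 ± 0.17. These 20 µM values carry no test because they chose the group, and in RNA from a whole well a change in cell number by type cannot be told apart from a change in RNA per cell.

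The 0.8 µM comparisons used the same vehicle arrays as the high dose values that chose the group. Their p-values for Rragd are therefore not independent of that choice. At 0.8 µM the Rragd transcript was tested with that limit. It rose at 48 h by 0.46 ± 0.12, or 1.38-fold (limma, adjusted p = 0.0342), with all 5 treated arrays above all 5 vehicle arrays, and its change at 24 h was 0.10 ± 0.12 (adjusted p = 0.846). It was the only one of the 10 member probe sets called at 0.8 µM and 48 h, a comparison in which 1.81% of all probe sets were called. None of the 10 was called at 0.8 µM and 24 h, where the share over all probe sets was 0.283%, and 1 had an unadjusted limma p under 0.05 (Mitf, 0.0157). The call at 48 h depended on single arrays. Without vehicle replicate 1, 3 or 4 the change was 0.39, 0.47 or 0.44 with an adjusted p of 0.102, 0.0575 or 0.0841. Without 0.8 µM replicate 1, 3 or 5 it was 0.46, 0.47 or 0.38 with an adjusted p of 0.0559, 0.0628 or 0.127. Fitted without the trend of spread on signal, or on the compared groups alone, the change of 0.46 had an adjusted p of 0.0504 or 0.0997.

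Rragc, the close relative of Rragd that can take its place in the pair, had 2 probe sets. The first read 12.37, 12.44, 12.33, 12.33 and 12.42 in vehicle at 48 h. At 20 µM and 48 h it read 12.76, 12.65, 12.72, 12.82 and 12.89, above every vehicle array of that time. Rragc rose by 0.39 ± 0.06 at 48 h (limma, adjusted p = 1.24e-05), or 1.31-fold. Its second probe set gave the same size, 0.39 ± 0.08 (adjusted p = 0.000358), with no overlap of the arrays. At 24 h the first probe set read 12.43, 12.38, 12.56, 12.36 and 12.54 in vehicle and 12.53, 12.54, 12.70, 12.60 and 12.64 at 20 µM, groups that overlapped. The 24 h changes of 0.15 ± 0.06 (adjusted p = 0.116) and 0.17 ± 0.08 (adjusted p = 0.177) did not pass. With a block for the array number the second probe set passed at the same size (adjusted p = 0.0458). At 0.8 µM and 48 h the changes were 0.15 ± 0.06 and 0.16 ± 0.08 (adjusted p = 0.265 and 0.4).

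Rraga and Rragb encode the other side of the pair. Rraga read 13.02, 13.15, 13.03, 13.19 and 13.29 in vehicle and 13.25, 13.19, 13.36, 13.22 and 13.39 at 20 µM at 24 h, with overlap. It rose at 24 h by 0.15 ± 0.05 (limma, adjusted p = 0.0412), the smallest change called among the members. The call was lost without vehicle replicate 1, 2 or 3 (0.12, 0.15 and 0.12, adjusted p = 0.137, 0.0578 and 0.127). It was also lost without 20 µM replicate 1, 3 or 5 (0.15, 0.13 and 0.12, adjusted p = 0.0509, 0.113 and 0.137), and in the fit of the compared groups alone (adjusted p = 0.153). With no filter, with arrays centred on their medians and without the trend the adjusted p was 0.0501, 0.06 and 0.0649.

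At 48 h Rraga read 13.06, 13.04, 13.07, 13.19 and 13.10 in vehicle and 13.06, 13.04, 12.95, 13.03 and 13.05 at 20 µM, a change of -0.07 ± 0.05 (limma, adjusted p = 0.366). The direction at 48 h was thus opposite to that at 24 h, but the difference of the 2 effects, -0.21 ± 0.07, did not pass (adjusted p = 0.12). Without vehicle replicate 5 at 24 h that difference was -0.25 with an adjusted p of 0.0331. Rragb had 3 probe sets, all below the filter. Group means of its brightest one ran from 7.17 to 7.88, below the log2 signal of 8.09 that marks the mean 40th percentile of the arrays, and the third lay at or near the floor of 4 in all groups. No change of Rragb can be read at that signal.

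**Figure D1:**
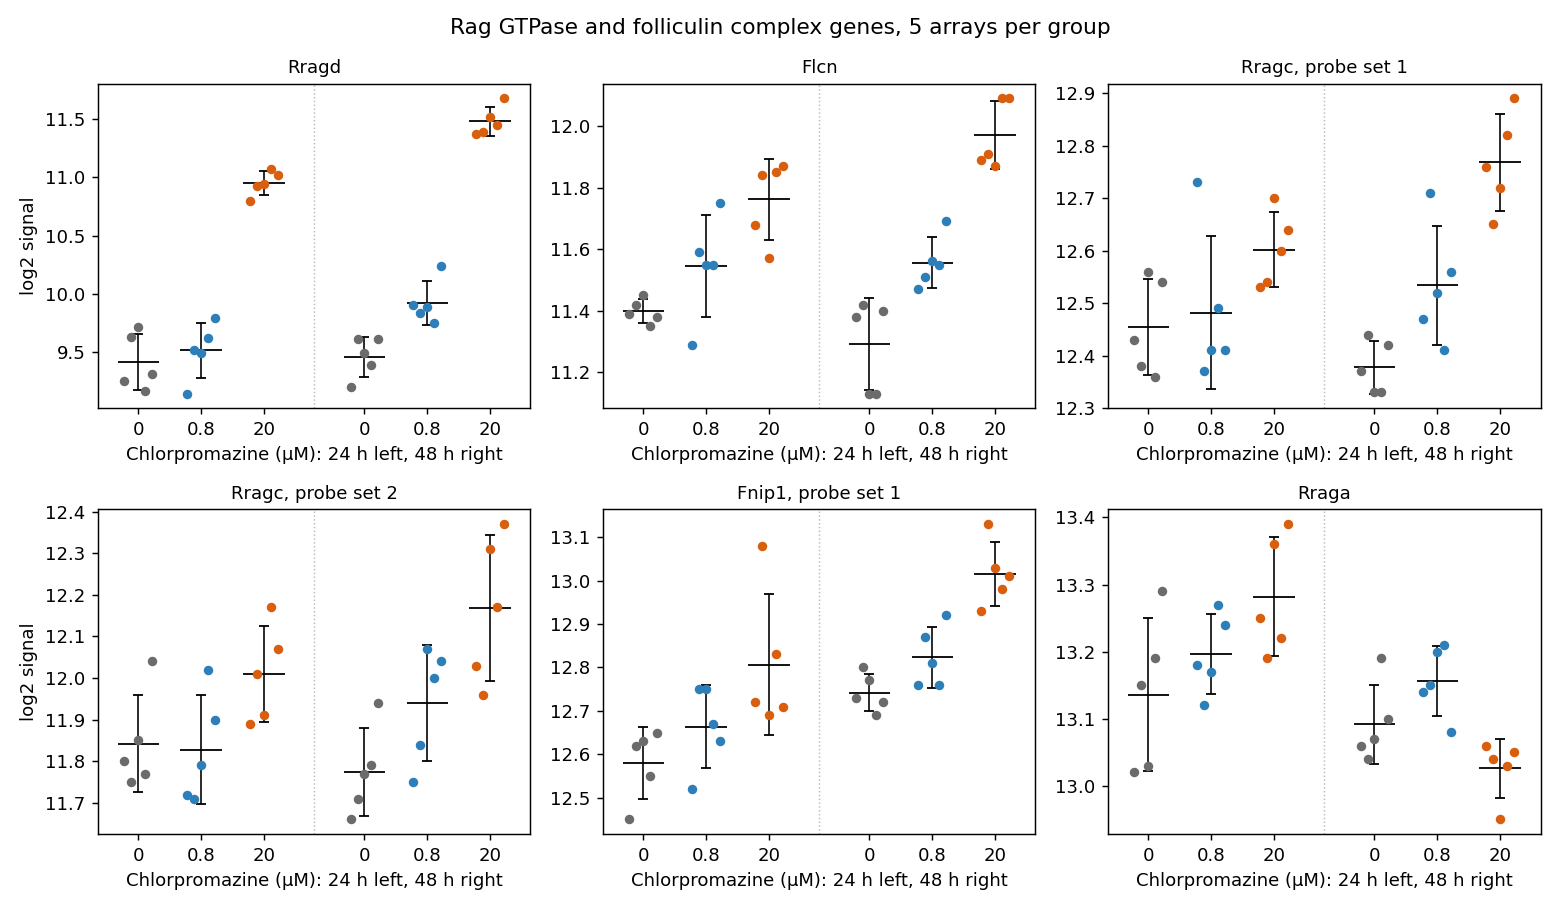
Log2 signal of the Rag GTPase and folliculin complex probe sets against chlorpromazine dose in µM, with 24 h on the left and 48 h on the right of each panel; points are arrays, horizontal lines group means and bars ± SD (n = 5), and each panel has its own scale that does not start at 0. Rragd and Flcn at 48 h lie in 3 separate dose groups, Rragd at 11.37 to 11.68 under 20 µM, while Rraga stays between 12.95 and 13.39 throughout.

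Flcn encodes folliculin, the activator of RagC and RagD. Its vehicle arrays at 24 h read 11.39, 11.42, 11.45, 11.35 and 11.38. The 0.8 µM arrays read 11.29, 11.59, 11.55, 11.55 and 11.75, on both sides of vehicle, and the 20 µM arrays read 11.68, 11.84, 11.57, 11.85 and 11.87, all above it. At 48 h vehicle read 11.38, 11.42, 11.13, 11.13 and 11.40. The 0.8 µM arrays at 48 h read 11.47, 11.51, 11.56, 11.55 and 11.69, and the 20 µM arrays 11.89, 11.91, 11.87, 12.09 and 12.09. As with Rragd, the 3 dose groups of Flcn at 48 h did not overlap.

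Flcn rose at 20 µM by 0.37 ± 0.08 at 24 h, or 1.29-fold (limma, adjusted p = 0.000619), and by 0.68 ± 0.08 at 48 h, or 1.60-fold (adjusted p = 1.92e-08). Between the 2 doses it was 0.41 ± 0.08 higher at 20 than at 0.8 µM at 48 h (adjusted p = 0.000113). The same difference at 24 h was 0.22 ± 0.08 (adjusted p = 0.064), and it passed without 20 µM replicate 3 (0.27, adjusted p = 0.0274) or without 0.8 µM replicate 5 (0.27, adjusted p = 0.022). It passed also with the stricter filter, with arrays centred on their medians, with genes taken as 1 probe set each and with the array number block (limma, adjusted p = 0.0431, 0.0319, 0.0485 and 0.0343). At 0.8 µM and 48 h Flcn was 0.26 ± 0.08 above vehicle with an adjusted p of 0.07. That value passed with the stricter filter, with array weights, with genes taken as 1 probe set each and with a block for the array number (adjusted p from 0.0358 to 0.0476), at a change of 0.26 to 0.27. The difference between the 20 µM effects at the 2 times, 0.31 ± 0.11, did not pass (adjusted p = 0.146).

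Fnip1, the binding partner through which folliculin is held in its complex, had 2 probe sets. The first read 12.45, 12.62, 12.63, 12.55 and 12.65 in vehicle and 12.72, 13.08, 12.69, 12.83 and 12.71 at 20 µM at 24 h. At 48 h it read 12.73, 12.80, 12.77, 12.69 and 12.72 in vehicle and 12.93, 13.13, 13.03, 12.98 and 13.01 at 20 µM. In neither comparison did the arrays overlap. Fnip1 rose by 0.23 ± 0.06 at 24 h (limma, adjusted p = 0.0078) and by 0.27 ± 0.06 at 48 h (adjusted p = 0.000824); the first passed no longer in the fit of the compared groups alone (adjusted p = 0.0556). The second, dimmer probe set changed by 0.29 ± 0.16 at both times with overlapping arrays and did not pass (adjusted p = 0.229 and 0.197).

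The promoter sequences of the 2 folliculin complex genes are shown because both rose at both times and the CLEAR element is an E-box sequence. They are the RefSeq windows of assembly GRCr8 from 250 bases before to 50 bases after the annotated start, written 5′ to 3′ on the gene's strand, with chr10:45107240-45107539 on the minus strand for Flcn and chr10:39068214-39068513 on the plus strand for Fnip1. Capitals mark an E-box, CACGTG.
Flcn: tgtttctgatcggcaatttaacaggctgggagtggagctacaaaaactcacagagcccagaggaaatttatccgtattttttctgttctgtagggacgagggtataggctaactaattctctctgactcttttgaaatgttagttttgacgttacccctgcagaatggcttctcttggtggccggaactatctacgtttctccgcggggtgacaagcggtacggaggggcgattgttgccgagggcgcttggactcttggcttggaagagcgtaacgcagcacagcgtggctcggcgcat
Fnip1: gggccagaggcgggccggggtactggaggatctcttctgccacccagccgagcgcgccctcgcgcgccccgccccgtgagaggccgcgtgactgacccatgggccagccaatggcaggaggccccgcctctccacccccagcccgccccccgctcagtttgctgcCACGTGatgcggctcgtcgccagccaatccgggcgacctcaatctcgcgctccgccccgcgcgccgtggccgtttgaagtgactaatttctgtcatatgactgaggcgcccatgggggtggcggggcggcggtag
Both strands were searched for CACGTG, for TCACGTGA, the form with the flanks of the CLEAR element, which contains the first, and for TCATGTG, the M-box. The Fnip1 window held CACGTG once, with its first base at -85 from the start, and the Flcn window held none of the 3. Of all 33469 windows in the table, 6.42% held CACGTG, 0.777% TCACGTGA and 3.56% TCATGTG. A match describes letters in this window and is no evidence of binding.

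None of the MiT/TFE factors passed the test at 20 µM with all arrays in the fit. Tfeb, the factor best known for lysosomal genes, read 9.70, 9.52, 9.73, 9.32 and 9.20 in vehicle and 9.26, 9.43, 9.33, 9.78 and 9.81 at 20 µM at 24 h. At 48 h it read 9.39, 9.14, 9.51, 9.33 and 9.19 in vehicle and 9.14, 9.21, 9.56, 9.38 and 9.0 at 20 µM. The groups overlapped at both times. The changes were 0.03 with a 95% interval of -0.30 to 0.36 at 24 h (limma, adjusted p = 0.943), and -0.05 with an interval of -0.38 to 0.28 at 48 h (adjusted p = 0.865). The sign of both turned when single arrays were left out, and the 24 h sign turned also with array weights.

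Tfe3, the related factor that acts beside Tfeb, was measured by 1 kept probe set and by 2 that were too dim, with group means of 7.01 to 7.74 and 4.26 to 5.25. The kept one read 10.56, 10.41, 10.21, 10.29 and 10.28 in vehicle and 10.70, 10.49, 10.82, 10.39 and 10.33 at 20 µM at 24 h. At 48 h it read 10.59, 10.33, 10.35, 10.18 and 9.71 in vehicle and 10.42, 10.44, 10.45, 10.43 and 10.36 at 20 µM. These groups overlapped, with the vehicle arrays at 48 h the more spread. Changes of 0.20 (interval -0.06 to 0.46) and 0.19 (interval -0.07 to 0.45) did not pass (limma, adjusted p = 0.335 and 0.316).

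Mitf, named for its role in pigment cells, was the dimmest member tested, and its second probe set was too dim to test with group means of 4.53 to 5.21. At 24 h it read 7.82, 8.81, 8.29, 8.24 and 8.05 in vehicle, 8.65, 8.62, 8.64, 8.65 and 8.82 at 0.8 µM, and 8.81, 8.64, 8.91, 8.42 and 8.39 at 20 µM. Vehicle replicate 2 stood at 8.81, above the other 4 vehicle arrays, and it is the array whose title gives 2 h. With it the change at 20 µM was 0.39 ± 0.17, with an interval of 0.04 to 0.74, and did not pass (limma, adjusted p = 0.117, unadjusted p = 0.0274). Without it the change was 0.54 with an adjusted p of 0.0233, and vehicle at 48 h exceeded vehicle at 24 h by 0.59 (adjusted p = 0.0245) in place of 0.45 ± 0.17 (adjusted p = 0.103). At 48 h Mitf read 8.54, 8.64, 8.50, 8.94 and 8.82 in vehicle and 8.63, 8.14, 8.65, 8.44 and 8.80 at 20 µM, a change of -0.16 with an interval of -0.51 to 0.19 (adjusted p = 0.567).

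**Figure D2:**
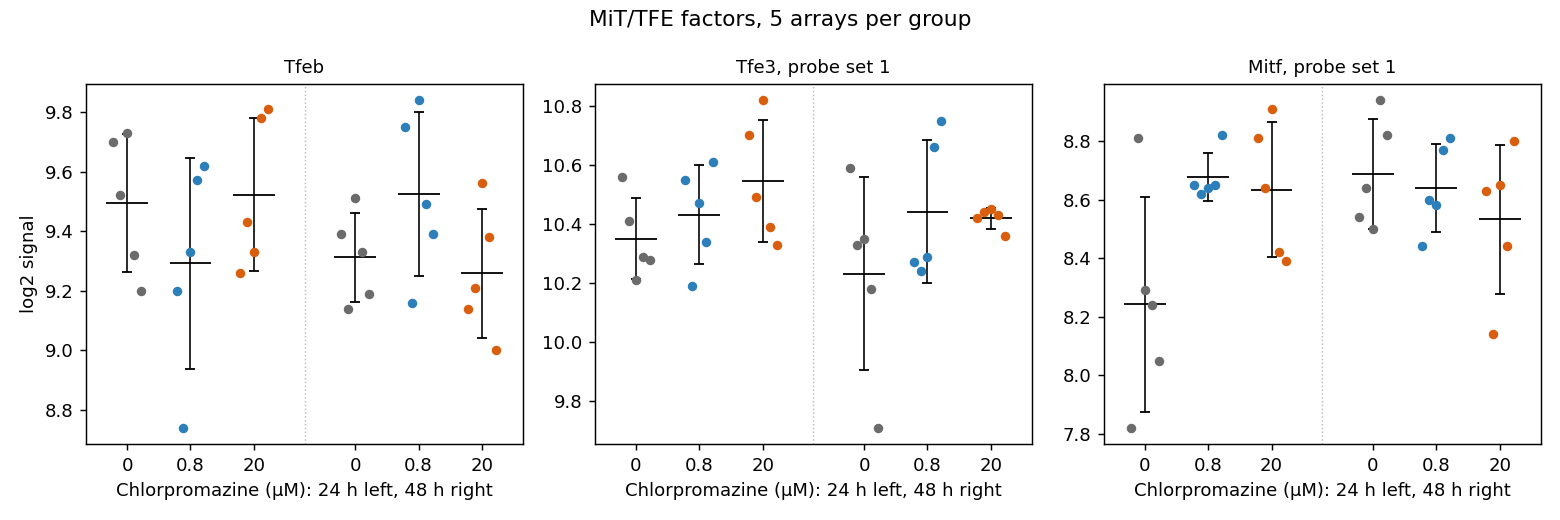
Log2 signal of the tested Tfeb, Tfe3 and Mitf probe sets against chlorpromazine dose in µM, with 24 h on the left and 48 h on the right of each panel; points are arrays, lines group means and bars ± SD (n = 5), on scales that do not start at 0. The 20 µM and vehicle arrays overlap in all 3 genes at both times, and 1 vehicle array of Mitf at 24 h stands at 8.81 above the other 4.

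Set beside all probe sets, 3 of the 9 member probe sets other than Rragd passed at 20 µM and 24 h (Rraga, Flcn and Fnip1), where 17.4% of all probe sets did. At 48 h 4 of 9 passed (both of Rragc, Flcn and Fnip1), against 26.9% of all. With so many probe sets called at that dose, and with members picked in view of the results, nothing about the group as a whole is read from these counts. Against 0.8 µM, none of the 9 was called at 24 h, where 11% of all were; 3 had an unadjusted limma p under 0.05, lowest for Flcn at 0.00784. There the second Rragc probe set passed with the array number block (0.18, adjusted p = 0.0402) and Fnip1 with median centring (0.17, adjusted p = 0.0458).

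At 48 h 4 of the 9 were higher at 20 than at 0.8 µM (19.8% of all were called). These were Flcn, given above, the Rragc probe sets at 0.23 ± 0.06 and 0.23 ± 0.08 (limma, adjusted p = 0.00709 and 0.0483), and Fnip1 at 0.19 ± 0.06 (adjusted p = 0.0233). The call of the second Rragc probe set was lost without 0.8 µM replicate 1, 2 or 4 (0.18, 0.20 and 0.24, adjusted p = 0.156, 0.118 and 0.0536) and without 20 µM replicate 3, 4 or 5 (0.19, 0.23 and 0.18, adjusted p = 0.135, 0.0758 and 0.163). It was lost also with no filter, median centring, no trend, the compared groups alone and array weights (limma, adjusted p from 0.059 to 0.0893). The call of Fnip1 was lost without 0.8 µM replicate 1 or 4 (0.18 in both, adjusted p = 0.0584 and 0.0627) or 20 µM replicate 2 (0.17, adjusted p = 0.0771). Rraga was 0.13 lower at 20 than at 0.8 µM at 48 h with no overlap of arrays, a change of -0.13 ± 0.05 that missed the threshold (adjusted p = 0.0615); without 0.8 µM replicate 5 it was -0.15 (adjusted p = 0.0417). That difference of Rraga also passed with the stricter filter, quantile normalization, array weights, genes taken as 1 probe set each and the array number block (limma, adjusted p = 0.0426, 0.036, 0.0347, 0.0459 and 0.0496).

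In culture without the drug, no change of the members between the times passed. None of the 10 was called between vehicle at 48 and at 24 h, where 8.93% of all probe sets were, 2 had an unadjusted limma p under 0.05, and the changes ran from -0.19 for Tfeb to 0.45 for Mitf. Fnip1 came closest at 0.16 ± 0.06 (limma, adjusted p = 0.0963, unadjusted p = 0.012) with arrays that did not overlap, and it passed with median centring (adjusted p = 0.048) and with the array number block (adjusted p = 0.0351). None of the 9 differed in its 20 µM effect between the times by the adjusted p (2.72% of all did), and 4 had an unadjusted limma p under 0.05, lowest for Rraga at 0.00518.

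**Figure D3:**
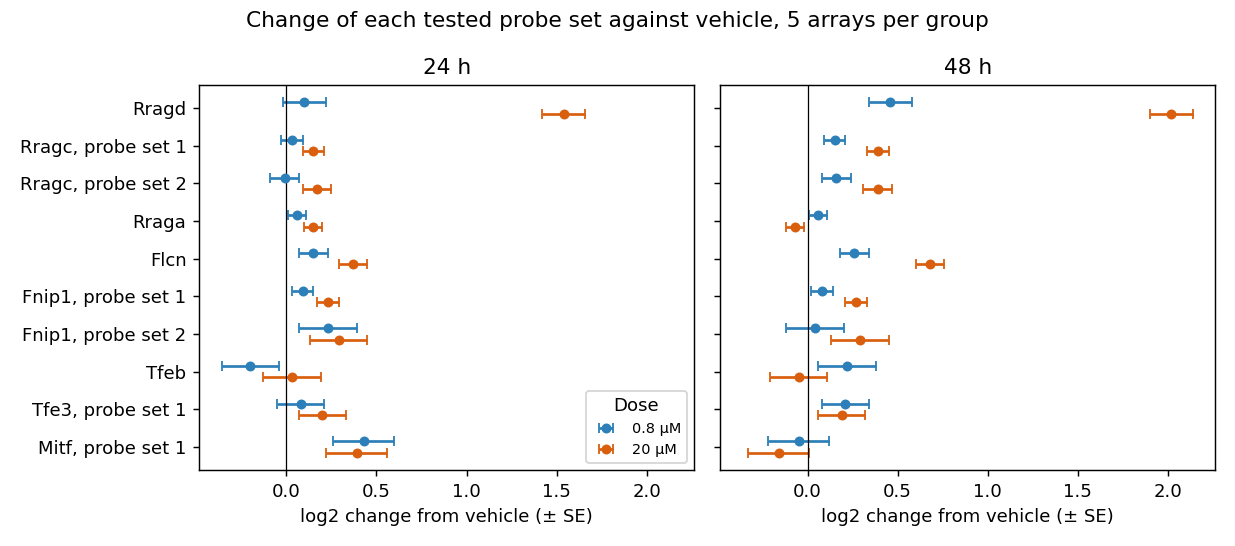
Log2 change from vehicle ± SE for each of the 10 tested probe sets at 0.8 µM (blue) and 20 µM (orange), at 24 h on the left and 48 h on the right, with 5 arrays per group. Rragd at 20 µM stands at 1.54 and 2.02, Flcn at 0.37 and 0.68, and the MiT/TFE factors lie on either side of 0 at 48 h.

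The other genes of the pathway were taken from 6 lists of 96 genes in all, 81 of which could be tested, each by its brightest kept probe set. At 20 µM 23 of the 81 rose and 1 fell at 24 h, and 40 rose and 4 fell at 48 h. Over all 11503 named genes 12.3% rose and 9.93% fell at 24 h, 19.3% rose and 14.2% fell at 48 h, and the median changes were 0.01 and 0.04. The lists were drawn up with results of these data known, so the counts describe them and are no independent evidence of a direction. Of the 81 genes, 1 in the Ragulator list and 5 in the list of CLEAR targets passed at 0.8 µM and 48 h, where 1.81% of all probe sets were called. None passed at 24 h, where 0.283% of all probe sets were called and 8 of the 81 had an unadjusted limma p under 0.05. Mcoln1 stands in 2 of the lists and is counted once here.

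Of the other 6 Ragulator, folliculin partner and related genes tested, 2 rose at 24 h and 4 at 48 h, none fell, and the median change was 0.17 and 0.29. Lamtor3, a subunit of the Ragulator, rose by 0.39 ± 0.05 and 0.86 ± 0.05 at the 2 times (limma, adjusted p = 1.19e-06 and 1.79e-14). It also rose at 0.8 µM and 48 h by 0.24 ± 0.05 (limma, adjusted p = 0.00955), a call lost without vehicle replicate 4 and in the fit of the compared groups alone. Lamtor5, another subunit, rose by 0.27 ± 0.04 and 0.37 ± 0.04. At 48 h Lamtor4 rose by 0.16 ± 0.05 and Fnip2, the second partner of folliculin, by 0.41 ± 0.13. The count at 48 h was 2 in place of 4 without 20 µM replicate 1 or without vehicle replicate 3, and 1 gene fell without 20 µM replicate 2 or vehicle replicate 3. Lamtor1 itself has no value here, because its only probe set is listed for a second gene as well.

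Upstream of the Rag pairs the picture was mixed. Of 10 GATOR and KICSTOR genes, the complexes that pass on amino acid supply to RagA and RagB, 1 rose at 24 h, and 3 rose and 1 fell at 48 h (median 0.04 and 0.11). Nprl2, a subunit of the complex that switches RagA and RagB off, changed by 0.03 ± 0.08 at 24 h and rose by 0.57 ± 0.08 at 48 h (limma, adjusted p = 2.53e-06). Sec13 and Seh1l, of the complex that opposes it, rose at 48 h by 0.36 ± 0.05 and 0.21 ± 0.07, and Kptn, of KICSTOR, fell by 0.35 ± 0.11 on the log2 scale (adjusted p = 0.0162), a call lost without 20 µM replicate 1 or 4.

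Among 5 amino acid sensors the sestrins changed in opposite directions. Sesn1 fell by 0.58 ± 0.07 and by 0.80 ± 0.07 on the log2 scale at the 2 times (limma, adjusted p = 2.22e-07 and 1.03e-10). Sesn2 rose by 0.45 ± 0.11 and 0.67 ± 0.11 (adjusted p = 0.00364 and 1.6e-05), and Sesn3 rose by 0.45 ± 0.10 at 24 h (adjusted p = 0.00112) with 0.24 ± 0.10 at 48 h (adjusted p = 0.0713). The number of sensors that rose at 48 h was 2 in place of 1 without vehicle replicate 3 or 4, and also without the trend. The other kept probe sets of Sesn2 and Sesn3 did not pass at 48 h and had the opposite sign.

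Of 9 genes of mTORC1 and its inhibitor TSC, none passed at 24 h (limma, lowest adjusted p = 0.0894, for Deptor), where 1 had an unadjusted p under 0.05; 1 fell without 20 µM replicate 3 and 1 rose with quantile normalization. At 48 h 2 rose and 1 fell (median -0.03). Tsc1 and Tsc2, which hold mTORC1 back, rose by 0.42 ± 0.08 and 0.32 ± 0.10 (limma, adjusted p = 9.2e-05 and 0.021), and Deptor, an inhibitor bound to mTOR, fell by 0.39 ± 0.12 on the log2 scale (adjusted p = 0.0161). The number that rose was 1 in place of 2 without vehicle replicate 4 or 5 or without 20 µM replicate 2 or 3, and the second kept probe set of Tsc1 had the opposite sign without passing. Mtor and Rptor, the kinase and its scaffold, changed by 0.11 ± 0.08 and 0.23 ± 0.16 at 48 h (adjusted p = 0.354 and 0.33).

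Of 14 genes whose proteins are known to set where the MiT/TFE factors sit in the cell, 6 rose at 24 h and 5 at 48 h, and none fell (median 0.17 and 0.15). Xpo1, the exporter that carries Tfeb out of the nucleus, rose by 0.27 ± 0.08 at 24 h and 0.35 ± 0.08 at 48 h (limma, adjusted p = 0.0144 and 0.00095). Ywhah, one of the proteins that hold phosphorylated Tfeb in the cytosol, rose by 0.31 ± 0.06 and 0.26 ± 0.06. Ywhag of the same family and Ppp3cb, a catalytic subunit of the phosphatase calcineurin, rose at 48 h by 0.27 ± 0.05 and 0.26 ± 0.08. These are transcripts, and neither protein nor its place in the cell was measured.

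Among genes reported elsewhere as targets of the MiT/TFE factors, called CLEAR targets here for short, 38 of 46 could be tested. At 24 h 12 rose and none fell, and at 48 h 26 rose and 1 fell, with a median change of 0.16 and 0.26. Gpnmb, a glycoprotein of lysosomes and melanosomes, rose by 1.42 ± 0.10 and 1.96 ± 0.10 (limma, adjusted p = 5.41e-12 and 3.47e-16). Subunits of the proton pump that acidifies the lysosome followed. Atp6v0b rose by 0.66 ± 0.08 and 1.20 ± 0.08, Atp6v1d by 0.70 ± 0.08 and 1.15 ± 0.08, Atp6ap1 by 0.35 ± 0.07 and 0.71 ± 0.07, Atp6v1c1 by 0.63 ± 0.08 and 0.71 ± 0.08, and Atp6v1h by 0.44 ± 0.05 and 0.63 ± 0.05. Atp6v1b2 and Tpp1, a lysosomal peptidase, changed by 0.16 ± 0.07 and 0.16 ± 0.10 at 24 h (adjusted p = 0.167 and 0.345) and rose at 48 h by 0.65 ± 0.07 and 0.59 ± 0.10. The gene that fell at 48 h was Ppargc1a, a metabolic coactivator, by 0.42 ± 0.11 on the log2 scale (adjusted p = 0.00463); it was named after its value was seen.

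At 0.8 µM and 48 h the 5 targets that rose were Gpnmb (0.49 ± 0.10), Atp6v1d (0.32 ± 0.08), Atp6v0b (0.31 ± 0.08), Atp6ap1 (0.28 ± 0.07) and Atp6v1e1 (0.17 ± 0.04), with adjusted p of 0.00548, 0.0274, 0.031, 0.0321 and 0.0348 from limma; Atp6v1e1 was named after its value was seen. That count was 1 without vehicle replicate 2 or 0.8 µM replicate 5. It was 2 without vehicle replicate 3 or 4 or 0.8 µM replicate 2 or 3, and 3 without vehicle replicate 5 or 0.8 µM replicate 1. Without the trend it was 1, and in the fit of the compared groups alone 2.

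Stretches of 24 bases around TCACGTGA are shown from the RefSeq promoter windows of 4 targets that rose at 48 h, to let the element be read in its place. They come from assembly GRCr8, from Lamp1 at chr16:83075114-83075137 on the minus strand, Mcoln1 at chr12:6358253-6358276 on the plus strand, Atp6v0d1 at chr19:50357286-50357309 on the minus strand and Vps33a at chr12:38685469-38685492 on the plus strand. Capitals mark the 8 letters searched.
Lamp1: ccctcggcTCACGTGAccggcggg
Mcoln1: cgccccgcTCACGTGAccgcggcg
Atp6v0d1: cattgtggTCACGTGAgatgcagt
Vps33a: gactcaggTCACGTGAacggtccg
The first base of the capitals lies at -66, 4, -53 and -47 from the start in that order. Lamp1 and Vps33a each held a further copy, at -39 and -31. Vps11, which also rose at 48 h, held copies at -26 and -5 and is not shown. Lamp1, a lysosomal membrane protein, rose at 48 h by 0.27 ± 0.05 (limma, adjusted p = 1.91e-05). Mcoln1, a lysosomal calcium channel, rose at 48 h by 0.21 ± 0.07 (limma, adjusted p = 0.0244). Atp6v0d1, a pump subunit, rose at 48 h by 0.30 ± 0.07 (limma, adjusted p = 0.00118). Vps33a, a tethering protein, rose at 48 h by 0.32 ± 0.06 (limma, adjusted p = 0.00012). None of the other kept probe sets of Vps33a passed at 48 h, and their signs were mixed. The other kept probe set of Lamp1 had the same sign and did not pass at 48 h either. Of the 30 tested targets with a window in the table, 7 held TCACGTGA (23.3%, against 0.777% of all windows), and 5 of those 7 rose at 48 h, as did 15 of the 23 without it. The targets were reported partly through this element, so its presence is a description.

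**Figure D4:**
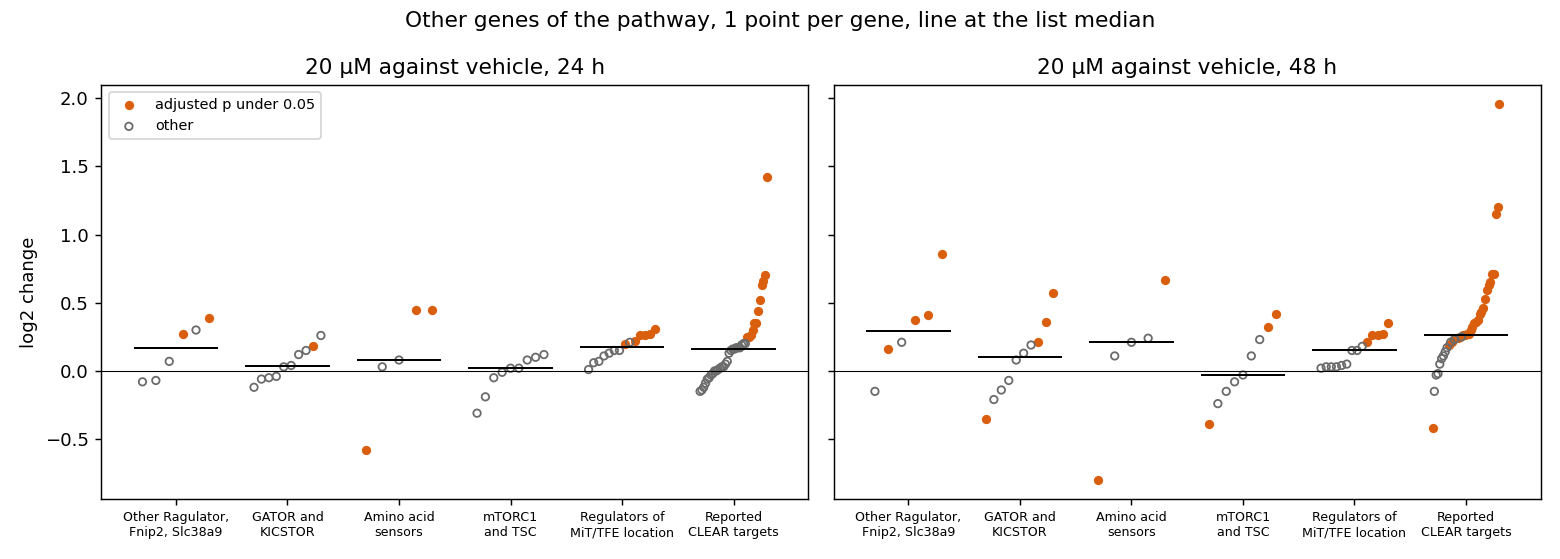
Log2 change at 20 µM against vehicle for each tested gene of the 6 other pathway lists, 24 h on the left and 48 h on the right; each point is 1 gene, filled where the adjusted p was under 0.05, and horizontal lines are list medians. In the list of reported CLEAR targets 12 genes rose at 24 h and 26 at 48 h, with Gpnmb highest at 1.42 and 1.96.

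Named genes without a locus number as symbol, each by its brightest kept probe set, were compared with Rragd over the 30 arrays. Of these, the genes most like Rragd were Gpnmb (Pearson r = 0.984), Ccng1 (0.974), Txndc12 (0.968), Gyg1 (0.965), Slc66a3 (0.963) and Tubb5 (0.959). The arrays share the dose groups, and the 20 µM groups enter these values. Over the 20 arrays without that dose r was 0.856 for Gpnmb, 0.714 for Ccng1, 0.785 for Txndc12, 0.578 for Gyg1, 0.79 for Slc66a3 and 0.575 for Tubb5. Among the members, Flcn had r = 0.887 over 30 arrays and 0.636 over 20, Fnip1 0.752 and 0.701, and Rragc 0.752 and 0.212. Tfe3, Mitf, Tfeb and Rraga lay between -0.104 and 0.223 over the 30 arrays. These values are descriptions with no test.

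Hepatocyte markers were present in all groups, with Alb, the serum albumin gene, at a mean log2 signal of 16.55. Of 8 tested by their brightest kept probe set, Asgr1 and Apob fell at both times at 20 µM and Fgb at 48 h, and none rose. The summed signal of the 8 per array ran from 407000 to 516000 at 20 µM and 48 h against 451000 to 560000 in vehicle. A dimmer kept probe set of Hnf4a also fell at 20 µM and 48 h. The dimmer one of Apob had the opposite sign and did not pass there, and that of Fgb did not pass either. Asgr1 fell at 0.8 µM and 48 h too, with a change of -0.30 ± 0.05 (limma, adjusted p = 0.00116). Of the 8 tested markers of Kupffer cells, the macrophages of the liver, Lyz2 fell at both times and Cd5l at 48 h. Cd68, which encodes a lysosomal membrane protein, rose by 1.44 ± 0.13 at 48 h (limma, adjusted p = 8.2e-11). At 24 h Cd68 changed by 0.10 ± 0.13 (limma, adjusted p = 0.669). Its vehicle mean was lower at 48 h, 9.8 against 10.64 at 24 h, while its 20 µM mean was 10.74 at 24 h and 11.24 at 48 h. The summed Kupffer signal ran from 11300 to 12400 at 20 µM and 24 h and from 13100 to 14100 in vehicle. It ran from 9120 to 11200 at 20 µM and 48 h and from 12100 to 13800 in vehicle. Lyz2 was the brightest gene of that sum, at a mean log2 signal of 13.19 in vehicle and 12.41 at 20 µM at 48 h. Adgre1, a defining macrophage marker, was too dim to test. None of the 8 stellate cell or 5 endothelial markers tested was called at 20 µM (limma, lowest adjusted p = 0.0791, for Kdr at 24 h). The unadjusted limma p was under 0.05 for 1 of each list at 24 h and 1 endothelial marker at 48 h. Of 2 bile duct markers Krt19 fell at 24 h, with a change of -1.28 ± 0.35 (limma, adjusted p = 0.00889). Its mean there was 8.16 in vehicle and 6.88 (SD 0.99) at 20 µM. The mean at 20 µM lay below the 8.09 given above for dim signals, so the size of that change is uncertain. At 48 h Krt19 changed by -0.29 ± 0.35 (adjusted p = 0.618). The part of these shifts in the values of the members was not tested.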

How the data were processed

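Each of 30 arrays measured RNA from 1 well of hepatocytes. The authors deposited linear intensity values per probe set, summarised with MAS5 per the submitters' processing notes (version not given in the sources used here). In the deposited table the mean signal between an array's 2nd and 98th percentiles, averaged over the 30 arrays, is 1500.0. The 57 control probe sets were left out of the tests.

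Signals below 16 were set to 16 before taking log2, and arrays were not normalized again, so a signal under the floor reads 4 and folds of dim genes are understated; 3.86% of values were under it. A probe set was kept where 5 or more arrays had it above their 40th percentile, which left 21226. Gene names start from the platform annotation (20826 probe sets with 1 symbol, 436 with several, 9780 not listed). Single symbols were updated to RefSeq's current ones through the gene identifier, while the members were matched on the platform symbol. Groups were compared in limma 3.58.1 (R 4.3.3), two-sided, fitting the 6 group means jointly, with a trend in eBayes, and p-values were adjusted by Benjamini-Hochberg over the kept probe sets. Beyond the members, genes are their brightest kept probe set (11503 genes), and intervals are 95% intervals of the fit.

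The members, the lists of pathway, target and marker genes and the tests were chosen with earlier results of these data known. The rule names every member and up to 4 called genes of each pathway list with the largest change (8 for the CLEAR targets). It also names the 6 genes most like Rragd, locus numbers left out, and marker genes that are absent or move with a member. Genes shown for a promoter element were chosen after their values were seen. The procedure was tested on simulated data. As alternatives, the floor, filter, scaling, trend, weights, groups fitted, a block for array number and 1 array at a time were varied. Promoter windows are RefSeq's; those of the 4 Rag genes and protein sequences were not used here.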

Additional observations from a re-analysis of the deposited data

Results flagged for a closer look

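In each group of 5 arrays, the highest and the lowest value of every tested member probe set were set against Dixon's 95% critical value. Of 60 such groups 1 had an array beyond it (1.67%), where chance gives about 1 in 20. It was Mitf at 0.8 µM and 24 h, where replicate 5 had a log2 signal of 8.82 and the other 4 arrays lay between 8.62 and 8.65, a gap of 0.856 of the whole range. Those 4 arrays lay unusually close together, and Mitf was not called at that dose.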

How the results depend on the processing

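No called change of a member turned its direction under any alternative. The precision is limited by 5 arrays per group, and most changes here are small. The 6 dim member probe sets were not tested, so neither a change nor its absence is read from them. The cause of the shifts below was not tested. The labels give the groups no shared replicate numbers, but the array numbers in the titles run in sets of 6 with 1 array of each group, and these sets were fitted as a block.

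The share of all probe sets called in the main fit is given above with each comparison. Members called at 20 µM and 24 h numbered 3. The count was 1 in the fit of the compared groups alone, 4 with the array number block and 2 to 3 with an array left out. Over all probe sets 3685 were called there, and 2738 to 3891 with the alternatives that left out no single array. At 20 µM and 48 h 4 members were called, 3 to 4 with those alternatives and 4 with an array left out. Over all probe sets the count at 48 h was 5702, and 4050 to 5933 with those alternatives. At 0.8 µM and 48 h 1 member was called, 2 with the stricter filter, array weights, genes as 1 probe set or the array number block, 0 without trend or with the compared groups alone, and 0 to 1 with an array left out. At 20 against 0.8 µM and 24 h the count was 0, 1 with the stricter filter or genes as 1 probe set, 2 with median centring or the block, and 0 to 1 with an array left out. At 20 against 0.8 µM and 48 h it was 4, 3 to 5 with the alternatives that left out no single array, and 2 to 5 with an array left out. Between vehicle times it was 0, 1 with median centring or the block, and 0 to 1 with an array left out; for the difference of effects it was 0, and 0 to 1.

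Over all probe sets, 60 were called at 0.8 µM and 24 h, 34 with no filter, 106 with the stricter filter, 18 with median centring, 13 without trend, 6 with the compared groups alone, 95 with genes as 1 probe set and 12 to 124 with an array left out. At 48 h 384 were called, 221 without trend and 199 to 371 with an array left out.

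Uncalled changes near 0 turned sign. Tfeb at 20 µM and 24 h went from 0.03 to -0.02 with array weights, the second Rragc probe set at 0.8 µM and 24 h from -0.01 to 0.00, and Mitf at 20 against 0.8 µM and 24 h from -0.04 to 0.02 with quantile normalization. With an array left out, Tfeb at 20 µM ran from -0.05 to 0.09 at 24 h and -0.13 to 0.01 at 48 h. At 0.8 µM and 24 h Rragc ran from -0.03 to 0.06 and its second probe set from -0.06 to 0.03. At 0.8 µM and 48 h the second Fnip1 probe set ran from -0.05 to 0.15 and Mitf from -0.09 to 0.02. Between the doses the second Fnip1 probe set ran from -0.03 to 0.16 and Mitf from -0.11 to 0.02 at 24 h, and Tfe3 from -0.07 to 0.05 at 48 h. Between vehicle times Rragd ran from -0.02 to 0.12 and Tfe3 from -0.21 to 0.02, and for the difference of effects the second Fnip1 probe set ran from -0.13 to 0.09 and Tfe3 from -0.14 to 0.08.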
